A study of Mus musculus with 12 samples.

Results

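Nr1d1 and 9 further genes of the circadian clock were followed through 12 RNA-seq libraries of mouse muscle stem cells (MuSCs) and of the myoblasts grown from them. The genes were Nr1d1, Nr1d2, Per1, Per2, Per3, Cry1, Clock, Npas2, Dbp and Tef, found by symbol among the 16169 genes listed for the genotype comparison and the 16503 listed for the culture comparison. All 10 were listed in both and reached at least 10 normalized counts in at least 3 libraries of each. They were chosen by their measured differences, with the results of both comparisons known. The differences are therefore given as descriptions, with a standard error and no p-value. Where calls of these genes are listed, they describe the call rule and are not read as support for a difference.

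The mammalian clock is a transcriptional loop with a period of about a day. CLOCK or its relative NPAS2 pairs with BMAL1 and switches on the Per, Cry and Nr1d genes through E-box elements, and the PER and CRY proteins then repress that pair. NR1D1 and NR1D2 (REV-ERBα and REV-ERBβ) are heme-binding nuclear receptors that repress Bmal1, Nfil3, Clock and Npas2 at sites shared with the ROR activators, and DBP and TEF are D-box activators driven by the loop. In skeletal muscle the clock drives daily rhythms of metabolic genes, and REV-ERB proteins have been tied to muscle regeneration and to oxidative capacity.

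Cells were sorted from hindlimb muscle as ITGA7+/Hoechst+ and CD31-/CD45-/CD11b-/SCA1-. In the genotype comparison, MuSCs of 3 WT mice (01 to 03) and 3 Nedd4L-cKO mice (01 to 03) were sequenced, all male and aged 5 to 6 weeks. The Nedd4L-cKO line was Nedd4L fl/fl Pax7 cre/+ on a C57BL/6 background, in which Cre made from the Pax7 locus removes exon 15 of Nedd4l in Pax7-expressing cells while a transcript is still made. The Cre and flox alleles of the WT mice are not given in the sources used here. In the culture comparison, MuSCs of 3 other WT mice (04 to 06) were set against myoblasts of the same 3 mice after 3 days in growth medium with serum and bFGF. Mice are numbered throughout by the replicate numbers of the sample titles, which differ from the animal labels. Those labels are 04, 08 and 32 for WT mice 01 to 03, and 22, 54 and 55 for Nedd4L-cKO mice 01 to 03. For mice 04 to 06 the animal labels are 18, 52 and 53. Each library held 1000 cells. The labels and methods give no hour of tissue collection and no batch, so neither could be compared between the groups.

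Levels are RPM, computed from the deposited normalized counts by 1 scale per comparison. The library totals spanned 40323500 to 50687100 normalized counts in the genotype comparison and 33189800 to 37595700 in the culture comparison. Read depth is unknown, because the deposited values are no longer whole reads. The targeted gene Nedd4l was measured at 70.2, 96.4 and 66.7 RPM in the WT against 30.2, 36.3 and 22.5 RPM in the Nedd4L-cKO MuSCs (log2 fold change of -1.37 ± 0.28, limma adjusted p = 0.0467, range over alternatives 0.0200 to 0.197). Summed muscle stem cell markers spanned 5938 to 9937 RPM in the WT, 5166 to 8505 RPM in the Nedd4L-cKO and 6047 to 8664 RPM in the culture-cohort MuSCs, against 807 to 901 RPM in myoblasts. Ptprc, which encodes the CD45 used for negative sorting, was under 1 RPM in all 12 libraries. Markers of other cell types were not absent. Summed endothelial markers spanned 64.0 to 106 RPM in the WT and 53.4 to 95.4 RPM in the Nedd4L-cKO MuSCs. Summed fibroadipogenic progenitor markers spanned 1563 to 2940 RPM in the WT and 1321 to 3205 RPM in the Nedd4L-cKO MuSCs.

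Promoter windows show where letters matching clock elements lie in front of 4 of these genes. RefSeq (GRCm38.p6) gave windows for 9 of the 10 genes, all but Per2, and the 250 bases before each start were searched on both strands for the E-box CACGTG, the E'-box CACGTT, the REV-ERB and ROR half-site AGGTCA, the D-box TTANNTAA and the CRE TGACGTCA. These letters occur by themselves in 6.02%, 3.85%, 14%, 5.43% and 1.55% of all 32851 windows, and a match is a description of the sequence only. Nr1d1 and Nr1d2 are shown because both were lower in every Nedd4L-cKO library. Per1 is shown because it was lower in every Nedd4L-cKO and every myoblast library, and Tef because its mean was higher in both comparisons. The means of Cry1 and Per2 were also higher in both, and no sequence is shown for them. Each sequence shown is written 5′ to 3′ on the strand of the gene, and capitals mark the matches:
Nr1d1, chr11:98775378-98775627, minus strand: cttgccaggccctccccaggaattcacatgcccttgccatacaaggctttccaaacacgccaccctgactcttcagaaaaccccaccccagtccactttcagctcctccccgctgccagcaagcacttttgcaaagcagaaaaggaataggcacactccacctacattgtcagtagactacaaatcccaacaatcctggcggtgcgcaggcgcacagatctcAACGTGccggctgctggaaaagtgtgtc
Nr1d2, chr14:18239107-18239356, minus strand: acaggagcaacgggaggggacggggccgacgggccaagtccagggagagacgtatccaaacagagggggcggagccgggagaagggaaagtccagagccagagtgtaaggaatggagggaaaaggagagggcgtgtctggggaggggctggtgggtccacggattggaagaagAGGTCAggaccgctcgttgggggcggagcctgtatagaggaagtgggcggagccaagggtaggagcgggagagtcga
Per1, chr11:69098699-69098948, plus strand: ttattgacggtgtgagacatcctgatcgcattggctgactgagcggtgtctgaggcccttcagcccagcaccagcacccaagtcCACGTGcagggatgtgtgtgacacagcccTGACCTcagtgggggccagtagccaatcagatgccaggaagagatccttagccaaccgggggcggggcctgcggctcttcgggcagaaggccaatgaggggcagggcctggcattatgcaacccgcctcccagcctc
Tef, chr15:81802423-81802672, plus strand: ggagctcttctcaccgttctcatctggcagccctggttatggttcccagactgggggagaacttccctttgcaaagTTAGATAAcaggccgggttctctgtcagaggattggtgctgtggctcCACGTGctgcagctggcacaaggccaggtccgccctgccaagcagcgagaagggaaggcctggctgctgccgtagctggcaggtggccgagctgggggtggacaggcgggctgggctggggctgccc

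The Nr1d1 window held an E'-box 28 bases before the start, read on the opposite strand. Nr1d2 held a REV-ERB and ROR half-site 77 bases before its start and no E-box. Per1 held an E-box 166 bases and a half-site, read on the opposite strand, 137 bases before the start. Tef held a D-box at 174 and an E-box at 127 bases. Per1 and Tef each had a second window, which held none of the 5 motifs for Per1 and an E-box at 138 bases for Tef. Among the other genes, Cry1 held an E-box at 60 and an E'-box at 79 bases, Per3 held D-boxes at 205 and 158 bases, 1 of the 3 Clock windows held a half-site at 119 bases, and Dbp and Npas2 held none of the 5 motifs. Of the 9 genes with a window, 3 had an E-box in at least 1 window and none had a CRE.

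The genes encoding REV-ERB receptors, Nr1d1 and Nr1d2, were both lower in all 3 Nedd4L-cKO libraries. Nr1d1 (chromosome 11, 98658752 to 98666188 on GRCm39) was measured at 135, 109 and 81.2 RPM in WT mice 01, 02 and 03 and at 13.1, 11.5 and 15.8 RPM in Nedd4L-cKO mice 01, 02 and 03. Every Nedd4L-cKO library lay below every WT library, and the mean was 8.05-fold lower (log2 fold change of -2.90 ± 0.28). Its paralog Nr1d2 (chromosome 14, 4230545 to 4266624 on GRCm39) was measured at 62.9, 62.3 and 65.0 RPM in the WT against 26.5, 28 and 18.7 RPM in the Nedd4L-cKO. These groups did not overlap either, and the WT libraries were close to each other, the highest being 1.04 times the lowest. The mean of Nr1d2 was 2.60-fold lower in the Nedd4L-cKO (log2 fold change of -1.36 ± 0.26).

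Nr1d1 shares sequence with a neighbour. In the GENCODE M39 basic annotation, 1338 of its 2721 exonic bases (49.2%) overlap exons of Thra, the thyroid hormone receptor alpha gene, on the opposite strand. The library kit does not mark strand, so reads from the shared stretch cannot be told apart. Thra falls outside the rule for named genes and was added for this overlap after its values were seen. It was measured at 57.6, 62.0 and 51.9 RPM in the WT against 39.3, 39.1 and 49.6 RPM in the Nedd4L-cKO (log2 fold change of -0.42 ± 0.24, limma adjusted p = 0.46). The difference of Thra did not pass the test, and its groups did not overlap. Dbp shares 27.8% of its exonic bases with Sphk2, Clock 14.0% with Tmem165 and Npas2 13.4% with the lncRNA Gm53549, each on the opposite strand.

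Of the Period genes, which encode repressors of the loop, Per1 was without overlap between the genotypes, while Per2 and Per3 overlapped. Per1 was measured at 50.6, 69.3 and 42.3 RPM in the WT against 30.9, 27.4 and 29.1 RPM in the Nedd4L-cKO. All Nedd4L-cKO libraries were lower (log2 fold change of -0.84 ± 0.27), and the 3 mice lay within 1.13 times of each other. Per2 was measured at 3.34, 6.43 and 23.5 RPM in the WT against 16.0, 27.0 and 22.0 RPM in the Nedd4L-cKO. WT mouse 03 lay among the Nedd4L-cKO values and 7.02 times above WT mouse 01, which was the widest span of any of the 10 genes within a group of this comparison. The log2 fold change of Per2 was 1.27 ± 0.53, and it was 1.97 without WT mouse 03 and 0.72 without WT mouse 01. Per3 spanned 15.1 to 27.6 RPM in the WT and 10.9 to 21.0 RPM in the Nedd4L-cKO, with overlapping groups (-0.25 ± 0.34). Cry1, which encodes the partner of the PER proteins, spanned 13 to 26.7 and 22.6 to 28.4 RPM, also with overlap (0.46 ± 0.31).

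The activator genes overlapped between the genotypes. Clock was measured at 61.0, 102 and 127 RPM in the WT against 75.8, 130.4 and 124 RPM in the Nedd4L-cKO (log2 fold change of 0.21 ± 0.32). Npas2, its relative, was measured at 10.1, 9.12 and 15 RPM in the WT against 10.3, 24.1 and 21.0 RPM in the Nedd4L-cKO (0.60 ± 0.37). The lowest Nedd4L-cKO library fell among the WT libraries for each gene.

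The D-box activators were Dbp, whose groups overlapped between the genotypes, and Tef, whose groups did not. Dbp was measured at 22.6, 25.2 and 30.4 RPM in the WT against 18.8, 24.4 and 16.8 RPM in the Nedd4L-cKO, with overlap (log2 fold change of -0.37 ± 0.28). Tef was measured at 18.6, 26.1 and 22.0 RPM in the WT against 37.8, 28.5 and 31.6 RPM in the Nedd4L-cKO. Every Nedd4L-cKO library of Tef lay above every WT library, and the mean was 1.47-fold higher (0.54 ± 0.27).

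**Figure D1:**
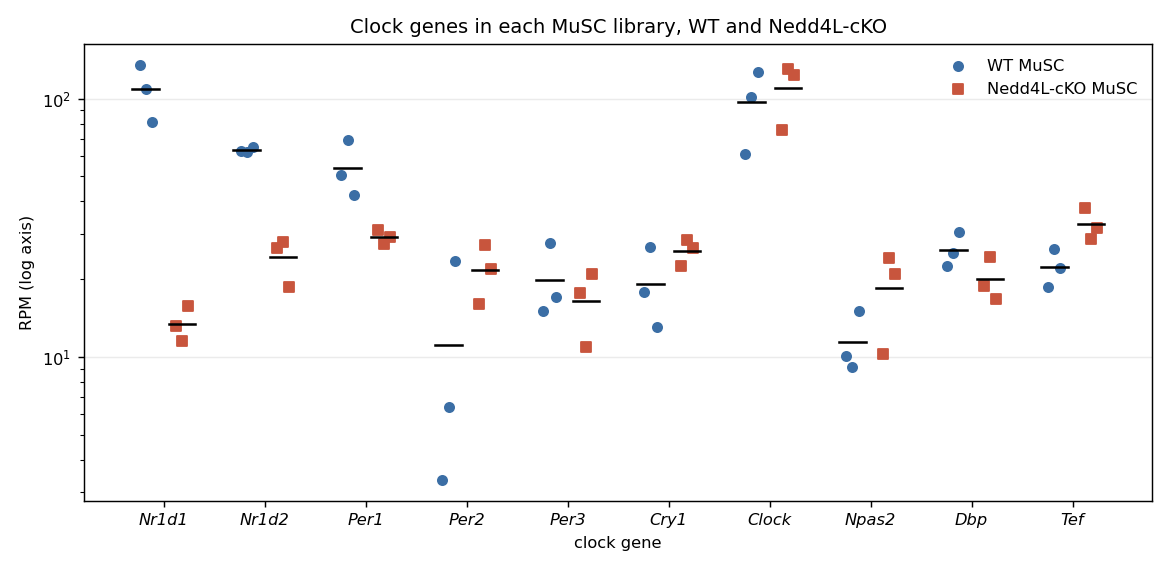
RPM (log axis) of the 10 clock genes in each library of the genotype comparison, with WT MuSCs as circles, Nedd4L-cKO MuSCs as squares and the mean of each group as a line. Nr1d1, Nr1d2 and Per1 are lower and Tef is higher in all 3 Nedd4L-cKO libraries, and Per2 spans 3.34 to 23.5 RPM among the WT.

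In the genotype comparison a gene was called when its adjusted p did not exceed 0.05, its log2 fold change was 1 or more in size and its mean reached 5 RPM. By this rule 2 of the 10 genes, Nr1d1 and Nr1d2, were called, both lower, where 0.653% of the 15304 tested genes were called, 0.203% lower and 0.451% higher. Groups did not overlap for 4 of the 10 genes and for 19.3% of all tested genes. The genes were chosen for differences of this kind, so nothing is read from these counts. The median log2 fold change of the 10 genes was -0.02, beside 0.0015 over all tested genes, with 5 lower and 5 higher. The calls under the alternatives are listed with the same limit. Nr1d1 was called under all 14 alternatives. Nr1d2 was called under 6 of them, and the call was lost when any of the 6 libraries was left out, with log2 fold changes of -1.19 to -1.49 over the alternatives. Per2 was called when WT mouse 03 was left out.

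Other markers also differed between the genotypes, and their part in the clock gene values was not tested. Summed transcripts of the 13 mitochondrial genes spanned 27606 to 38740 RPM in the WT and 57413 to 66263 RPM in the Nedd4L-cKO. Summed myoblast markers spanned 323 to 1190 RPM in the WT and 639 to 1156 RPM in the Nedd4L-cKO. Of the 8, 7 were higher and 1 was called, Ccnb1, a cyclin gene of dividing cells (2.20 ± 0.40, limma adjusted p = 0.0325, range over alternatives 0.00468 to 0.105), whose call was lost without WT library 02 or any of the Nedd4L-cKO libraries. Of 10 muscle stem cell markers, 8 were lower and 1 was called, Cd34, a surface sialomucin gene (-1.64 ± 0.29, limma adjusted p = 0.0293, range over alternatives 0.00839 to 0.122). The call of Cd34 was lost without WT library 01 or 02 or Nedd4L-cKO library 02. Summed mature myofiber markers spanned 254 to 491 and 546 to 658 RPM, and 10 of 10 were higher in the Nedd4L-cKO with none called (limma; 6 at an unadjusted p under 0.05). Summed mural and Schwann cell markers spanned 1151 to 1896 RPM in the WT and 2141 to 3142 RPM in the Nedd4L-cKO, and of the 8 markers 4 were lower and 4 higher with none called (limma; 5 at an unadjusted p under 0.05). Of all 15304 tested genes, 0.653% were called, and 2240 reached an unadjusted p under 0.05 (limma). The genotypes did not overlap for 4 of 10 muscle stem cell, 2 of 8 myoblast and 6 of 10 mature myofiber markers. The same held for 3 of 8 mural and Schwann cell, 2 of 4 endothelial and 0 of 8 fibroadipogenic progenitor markers. Over all tested genes the share without overlap was 19.3%. In sorted bulk samples, fewer cells of a type and less RNA per cell cannot be told apart. With each library scaled to its own total, the median of all genes moved by -0.093, and Nr1d1, Nr1d2, Per1 and Tef kept their directions.

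In culture, Nr1d1, Per1, Per3, Dbp and Npas2 were lower and Cry1 was higher in the myoblasts of all 3 mice. Nr1d1 was measured at 186, 100.3 and 104 RPM in the MuSCs of mice 04, 05 and 06 and at 4.72, 17.8 and 20.6 RPM in their myoblasts. All myoblast libraries were lower, and the mean was 9.06-fold lower (log2 fold change of -3.25 ± 0.49). Within each mouse the difference on the log2 scale was -5.03, -2.43 and -2.28. Thra, with which Nr1d1 shares exons, was measured at 82.6, 68.2 and 50.9 RPM in MuSCs and at 5.35, 6.66 and 7.81 RPM in myoblasts (-3.15 ± 0.28, limma adjusted p = 4.98e-05). The shared exons leave the parts of the Nr1d1 and Thra reads in both differences unresolved.

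Nr1d2 did not follow Nr1d1 in culture. It was measured at 66.6, 42.6 and 25.7 RPM in MuSCs and at 48.9, 62.0 and 34.9 RPM in myoblasts, with overlapping groups (log2 fold change of 0.17 ± 0.36). Within mice the difference was -0.44, 0.53 and 0.43, so that 2 mice were higher and 1 lower. Its sign changed to -0.17 without MuSC library 06 and to -0.02 without myoblast library 05.

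Per1 was lower in culture by a difference within an SE of that of Nr1d1. It was measured at 65.7, 39 and 39.5 RPM in MuSCs and at 1.45, 5.22 and 4.48 RPM in myoblasts. The myoblasts were lower in every mouse, and the mean was 12.9-fold lower (log2 fold change of -3.45 ± 0.41). Per3 was measured at 47.3, 22.5 and 23.6 RPM in MuSCs and at 9.30, 9.68 and 14.2 RPM in myoblasts, again without overlap (-1.35 ± 0.35). Per2 remained low in both, with 6.17, 7.62 and 7.13 RPM in MuSCs and 5.20, 5.96 and 16.6 RPM in myoblasts. Its groups overlapped (0.20 ± 0.43), and its sign changed to -0.28 without myoblast library 06.

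Cry1 went against Per1 and Per3 in culture. It was measured at 17.0, 17.4 and 18.9 RPM in MuSCs and at 34.0, 33.9 and 28.3 RPM in myoblasts. The groups did not overlap, and the mean was 1.81-fold higher in myoblasts (log2 fold change of 0.82 ± 0.23). Clock spanned 43.9 to 102 RPM in MuSCs and 33.0 to 56.8 RPM in myoblasts with overlap (-0.48 ± 0.34), and was lower in the myoblasts of each mouse. Npas2 was measured at 2.27, 5.68 and 9.92 RPM in MuSCs and at 0.679, 0.644 and 0.226 RPM in myoblasts. All myoblast libraries of Npas2 were under 1 RPM (-2.05 ± 0.44), a level at which the added 1 RPM shortens the difference. With 0.1 RPM added in its place the log2 fold change was -3.17.

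In culture, the mean of Dbp was lower and that of Tef was higher in myoblasts. Dbp was measured at 52.6, 42.6 and 39.9 RPM in MuSCs and at 4.76, 8.26 and 11.4 RPM in myoblasts. Every myoblast library was lower, and the mean was 5.54-fold lower (log2 fold change of -2.39 ± 0.33). Tef was measured at 43.6, 21.4 and 25.2 RPM in MuSCs and at 37.4, 100.3 and 99.8 RPM in myoblasts. Within mice 05 and 06 the difference was 2.18 and 1.95 on the log2 scale, while mouse 04 differed by -0.21 and made the groups overlap. The fit, which does not pair the libraries by mouse, gave 1.30 ± 0.42, and the SE was 0.47 with the mouse as a block. Without myoblast library 04 the log2 fold change of Tef was 1.77.

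**Figure D2:**
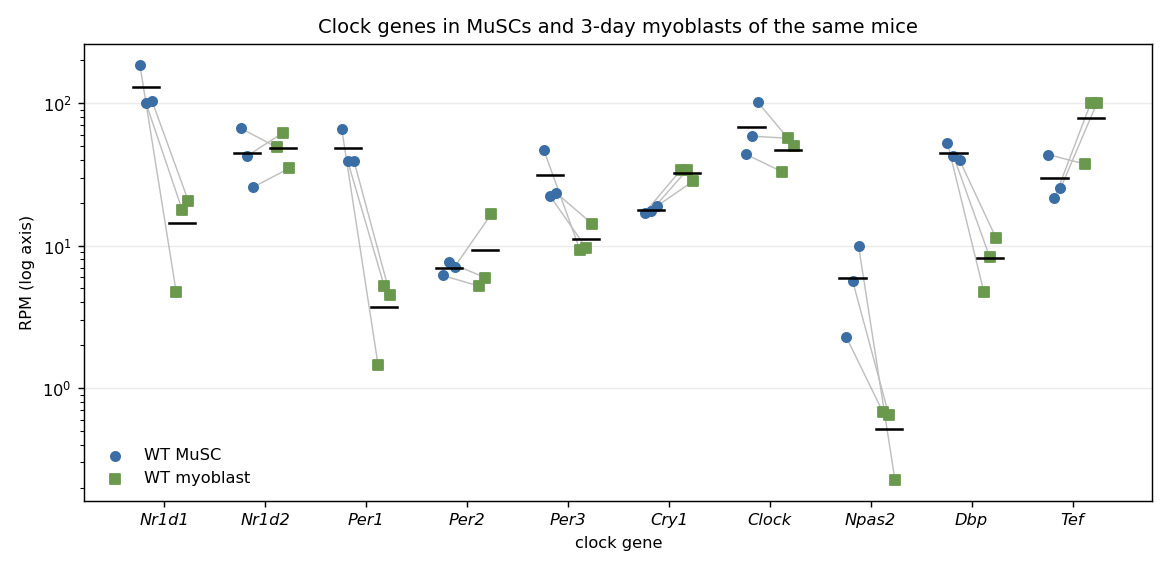
RPM (log axis) of the 10 clock genes in MuSCs (circles) and 3-day myoblasts (squares) of 3 WT mice, with a line joining the libraries of a mouse and a bar at the mean of each group. Nr1d1, Per1, Per3, Dbp and Npas2 are lower and Cry1 is higher in all 3 myoblast libraries, and Tef is higher in 2 of the 3 mice.

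In the culture comparison a gene was called when its adjusted p did not exceed 0.05, with no other criterion. By this rule 7 of the 10 genes were called, 5 lower (Nr1d1, Per1, Per3, Dbp and Npas2) and 2 higher (Cry1 and Tef), where 42.8% of the 15345 tested genes were called, 20.6% lower and 22.2% higher. Groups did not overlap for 6 of the 10 genes and for 55.2% of all tested genes, and again nothing is read from these counts. The median log2 fold change of the 10 genes was -0.92, beside 0.04 over all tested genes. With the mouse as a replicate block 5 of the 10 were called, since Cry1 and Tef no longer passed. Tef also lost the call without MuSC library 05 or 06 or myoblast library 05 or 06, and Cry1 without MuSC or myoblast library 05. Nr1d1, Per1, Per3 and Dbp were called under all 14 alternatives. For genes chosen by their differences, these calls are not read as support either.

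In culture, the libraries of mouse 04 were often at an end of the range. Its MuSC library was the highest of the 3 for 6 of the 10 genes and the lowest for 4. Its myoblast library was the lowest for 7 of the 10 and the highest for 2. This was not particular to mouse 04, as Nedd4L-cKO library 02 was the highest for 6 and the lowest for 4 of the 10. Without myoblast library 04, the log2 fold change was -2.64 for Nr1d1, -3.03 for Per1 and -2.09 for Dbp. Without MuSC library 04, it was -2.96 for Nr1d1, -3.20 for Per1 and -2.28 for Dbp.

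Markers of other cell types and immediate early genes differed along with culture. Summed fibroadipogenic progenitor markers spanned 1403 to 1932 RPM in MuSCs and 137 to 179 RPM in myoblasts, and Dpt among them was at 0 in all 3 myoblast libraries. Of the 7 tested, 4 were called lower and 1 higher, Ly6a, which encodes the SCA1 used for negative sorting and stayed at 1.45 to 2.50 RPM in myoblasts. Summed endothelial markers spanned 43.6 to 46.0 and 11.4 to 21.2 RPM. Summed myoblast markers spanned 1462 to 1762 RPM in MuSCs and 7467 to 11575 RPM in myoblasts, and summed mature myofiber markers 363 to 551 and 9112 to 20885 RPM. Of 20 immediate early genes, which tissue dissociation and serum can induce, 17 were called lower and 2 higher, beside 42.8% of all tested genes called. Their sum went from 12425 to 18611 RPM in MuSCs to 821 to 1034 RPM in myoblasts. Fos fell from 5974 ± 1795 to 18.1 ± 0.695 RPM (SD, n = 3 each; log2 fold change of -8.24 ± 0.24, limma adjusted p = 2.73e-07). Their part in the Per1 and Nr1d1 values was not tested. Between the genotypes the sum of the immediate early genes spanned 9057 to 11116 RPM in the WT and 9611 to 11249 RPM in the Nedd4L-cKO. There 1 of the 20 genes was called, beside 0.653% of all tested genes. It was Ier3, which rose (1.31 ± 0.26, limma adjusted p = 0.0467, range over alternatives 0.0207 to 0.134).

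**Figure D3:**
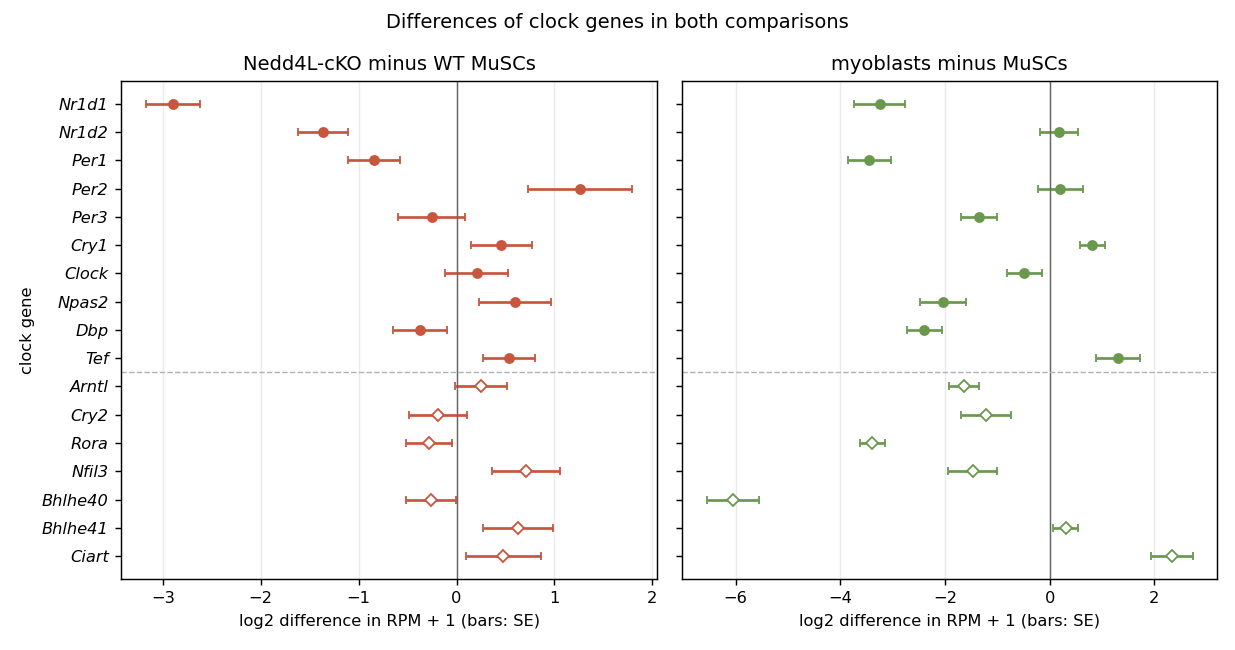
Log2 difference in RPM + 1 with its SE for the 10 clock genes (filled circles) and 7 further genes of the loop (open diamonds), for Nedd4L-cKO minus WT MuSCs on the left and myoblasts minus MuSCs on the right, with different axis ranges. Nr1d1 lies at -2.90 and -3.25, Nr1d2 at -1.36 and 0.17, and Bhlhe40 at -0.26 and -6.05.

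The clock genes outside the 10 did not pass the test between the genotypes. Of 21 other clock genes tested, none was called with limma, where 0.653% of all 15304 tested genes were called. The 10 had been chosen by their differences, and at so low a share few calls could be met among 21 genes. Nothing is therefore read from the lack of calls. Of the 21, 15 were lower and 6 higher. An unadjusted p under 0.05 (limma) was reached by 2 of the 21 and by 2240 of all tested genes. The median log2 fold change of the 21 was -0.14. Those 2 genes, named after their values were seen, were Arntl2, a relative of Bmal1 (-0.93 ± 0.34, limma adjusted p = 0.245), and Csnk1d, a kinase of PER proteins (-0.65 ± 0.25, limma adjusted p = 0.273), both lower in every Nedd4L-cKO library. Bmal1, listed as Arntl, is the partner of CLOCK and a target of REV-ERB repression. It was measured at 75.8, 73.7 and 55.3 RPM in the WT against 79.7, 102 and 64.1 RPM in the Nedd4L-cKO, with overlap (0.25 ± 0.27, limma adjusted p = 0.709). Nfil3, a D-box repressor and another REV-ERB target, was measured at 101, 88.2 and 58.6 RPM in the WT against 77.6, 192 and 156 RPM in the Nedd4L-cKO, also with overlap (0.71 ± 0.35, limma adjusted p = 0.376). Rora, an activator at the REV-ERB sites, differed by -0.28 ± 0.24, and Cry2, the second cryptochrome gene, by -0.19 ± 0.30. Hlf, a PAR bZIP relative of Dbp and Tef, spanned 1.69 to 2.77 RPM over the 6 libraries and differed by -0.03 ± 0.33.

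Among the 21 other clock genes in culture, 7 were called, 5 lower and 2 higher, beside 42.8% of all tested genes. Their median log2 fold change was -0.28, beside 0.04 over all tested genes. Bhlhe40, which encodes the E-box repressor DEC1, fell from 388, 419.8 and 296 RPM in MuSCs to 1.41, 4.70 and 11.1 RPM in myoblasts (log2 fold change of -6.05 ± 0.50, limma adjusted p = 3.30e-05). Its relative Bhlhe41 (DEC2) did not pass, at 57.1, 61.2 and 91.9 RPM in MuSCs and 93.5, 70.1 and 93.8 RPM in myoblasts (0.31 ± 0.24, limma adjusted p = 0.333). Rora fell from 294, 227 and 195 RPM to 20.8, 18.0 and 26.7 RPM (-3.39 ± 0.24, limma adjusted p = 1.47e-05). Arntl fell from 48.2, 97.9 and 70.3 RPM to 23.9, 19.6 and 21.5 RPM (-1.64 ± 0.28, limma adjusted p = 0.00194). None of these 3 genes that fell had overlapping groups.

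Nfil3 also fell in culture, from 99.6, 75.3 and 64.6 RPM to 11.2, 40.4 and 45.6 RPM (log2 fold change of -1.47 ± 0.47, limma adjusted p = 0.0329). That call was lost when any of the 3 MuSC libraries was left out, with adjusted p of 0.0152 to 0.0954 over the alternatives. Gsk3b, a kinase that acts on clock proteins, fell by less (-0.86 ± 0.21, limma adjusted p = 0.00926). Ciart, a repressor of CLOCK and BMAL1, rose from 0.759, 1.69 and 0 RPM to 7.98, 7.98 and 6.64 RPM (2.34 ± 0.40, limma adjusted p = 0.00177), and Fbxw11, a ubiquitin ligase subunit that acts on PER proteins, rose by 1.59 ± 0.22 (limma adjusted p = 0.000580). Cry2 missed the threshold at -1.21 ± 0.48 (limma adjusted p = 0.0689) and passed it without myoblast library 06 (-1.56, adjusted p = 0.0368).

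Between the genotypes, 2 of 13 genes described as repressed by REV-ERB were called, both higher. Of all tested genes, 0.653% were called, 0.451% higher. Of the 13, 10 had a positive log2 fold change, and the median log2 fold change was 0.45 beside 0.0015 over all genes. Ccl2, a monocyte chemokine, rose from 25.6, 41.0 and 23.7 RPM in the WT to 172, 177 and 135 RPM in the Nedd4L-cKO (2.42 ± 0.28, limma adjusted p = 0.00296). Il6, an inflammatory cytokine, rose from 2.52, 4.72 and 10.03 RPM to 39.7, 58.3 and 24.0 RPM (2.70 ± 0.44, limma adjusted p = 0.0225, range over alternatives 0.00357 to 0.105). Its call was lost without Nedd4L-cKO library 01 or 02 or WT library 02. The list was drawn up with these data known, so nothing is read from the count called. Ccl2 and Il6 are also induced by other routes in muscle.

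In culture, 9 of the 13 REV-ERB target genes were called, 5 lower and 4 higher, beside 42.8% of all tested genes. In all, 8 had a negative log2 fold change, and the median was -0.89. Ccl2, Lpl, Arntl and Nfil3 were among those that fell. Ccl2 went the other way, from 30.1 ± 2.93 RPM in MuSCs to 0.251 ± 0.0825 RPM in myoblasts (SD, n = 3 each; log2 fold change of -4.63 ± 0.30, limma adjusted p = 8.82e-06). Bnip3, which encodes a mitophagy receptor, rose from 54.1 ± 6.75 to 371 ± 94.8 RPM (2.73 ± 0.22, limma adjusted p = 3.21e-05). Cdkn1a, which encodes the cell cycle inhibitor p21, rose from 272 ± 15.2 to 1575 ± 816 RPM (2.38 ± 0.36, limma adjusted p = 0.00099), and Fgf21, which encodes a stress-induced hormone, rose by 6.12 ± 0.56 (limma adjusted p = 5.72e-05). Elovl3, a fatty acid elongase gene, rose by 1.89 ± 0.33 (limma adjusted p = 0.00207).

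The genes of the REV-ERB corepressor complex and of heme, its ligand, were not called between the genotypes. By limma 0 of 10 were called, beside 0.653% of all tested genes, and 1 reached an unadjusted p under 0.05, beside 2240 of 15304. With 10 genes and so low a share, the lack of calls does not show that these genes were unchanged. In culture 3 of 10 were called, beside 42.8% of all tested genes, with a median log2 fold change of 0.17. Hmox1, which degrades heme, rose from 8.15, 10.8 and 9.18 RPM to 84.6, 80.1 and 61.6 RPM (log2 fold change of 2.88 ± 0.25, limma adjusted p = 3.96e-05). Fech, which makes heme, rose by 1.59 ± 0.22 (limma adjusted p = 0.000556), and Gps2, a corepressor subunit, fell by 1.06 on the log2 scale, with an SE of 0.19 (limma adjusted p = 0.00234). Of 13 clock-controlled output genes, none was called between the genotypes, beside 0.653% of all tested genes (limma, 4 at an unadjusted p under 0.05). The same limit holds for this lack of calls. In culture 4 of the 13 were called, also beside 42.8% of all tested genes, with a median log2 fold change of -0.11. Among them, Tcap, a sarcomere gene, rose from 2.86 ± 0.485 to 218 ± 138 RPM (SD, n = 3 each; 5.60 ± 0.47, limma adjusted p = 3.49e-05) and Pdk4, a brake on glucose oxidation, fell from 77.7 ± 25.7 to 32.6 ± 7.63 RPM (-1.20 ± 0.30, limma adjusted p = 0.0117).

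Per kilobase of exon, Nr1d1 was the highest of the 10 genes in both groups of WT MuSCs. Its level was 39.9 ± 9.91 RPM per kb (SD, n = 3) in the genotype cohort and 47.8 ± 17.9 RPM per kb in the culture cohort, and its lowest library was above the highest library of any other of the 10 in each. Dbp came next at 13.4 ± 2.06 and 23.2 ± 3.44 RPM per kb, also above the highest library of the gene that followed. In the genotype cohort Nr1d2 followed Dbp at 11.1 ± 0.248 RPM per kb, and Clock, Per1, Cry1 and Tef (4.73 to 7.29 RPM per kb on average) could not be ordered beyond their ranges. Per3, Npas2 and Per2 were lowest, with overlapping ranges. In this cohort the lowest Dbp library was at 11.6 and the highest Nr1d2 library at 11.4 RPM per kb. The lengths join the exons of all basic transcripts of a gene. Of the exonic bases, 49.2% of Nr1d1 and 27.8% of Dbp are shared with a gene on the opposite strand. The part of shared reads in this order was not tested.

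The order was different in the other groups. In the Nedd4L-cKO, Nr1d1 was the fifth gene at 4.95 ± 0.786 RPM per kb, behind Dbp (10.3 ± 2.02), Clock (8.29 ± 2.25), Tef (6.93 ± 1.01) and Cry1 (6.81 ± 0.778). The ranges of those 4 overlapped from neighbour to neighbour. In myoblasts Tef led at 16.8 ± 7.68 RPM per kb, followed by Nr1d2 (8.53 ± 2.38), Cry1 (8.47 ± 0.865) and Nr1d1 (5.28 ± 3.11), with overlap between neighbours. Per1 at 0.486 ± 0.261 RPM per kb and Npas2 at 0.0993 ± 0.0485 RPM per kb were the lowest and did not overlap each other or Per2, the gene above.

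**Figure D4:**
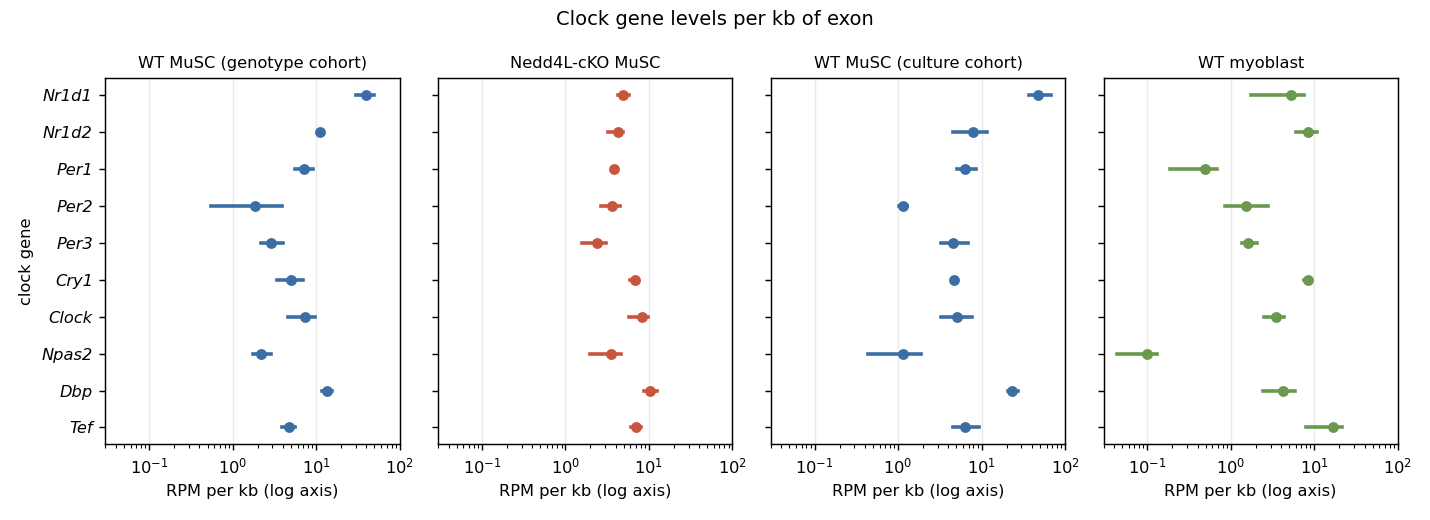
Level of each clock gene in RPM per kb of exon (log axis) in the 4 groups, with a point at the mean and a line from the lowest to the highest of 3 libraries. Nr1d1 stands alone at the top in both groups of WT MuSCs, at 39.9 and 47.8 RPM per kb, and lies among the others at 4.95 RPM per kb in Nedd4L-cKO MuSCs and 5.28 RPM per kb in myoblasts.

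Ratios within a library do not depend on the scale of that library, although the authors' gene-wise factors remain in them. Nr1d1 to Nr1d2, as normalized counts, was 2.15, 1.75 and 1.25 in the WT and 0.496, 0.412 and 0.843 in the Nedd4L-cKO. It was 2.79, 2.36 and 4.04 in the culture-cohort MuSCs and 0.0965, 0.286 and 0.590 in their myoblasts. The ratio was above 1 in all 6 WT MuSC libraries and below 1 in the other 6. Per1 to Per2 was 15.1, 10.8 and 1.80 in the WT and 1.93, 1.01 and 1.32 in the Nedd4L-cKO, so that WT mouse 03 lay inside the Nedd4L-cKO range. It was 10.7, 5.11 and 5.55 in the culture-cohort MuSCs and 0.279, 0.876 and 0.270 in myoblasts, without overlap.

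Dbp to Tef was 1.21, 0.964 and 1.38 in the WT and 0.497, 0.855 and 0.533 in the Nedd4L-cKO. In the culture cohort it was 1.21, 1.99 and 1.58 in MuSCs and 0.127, 0.0823 and 0.114 in myoblasts. Every WT MuSC library lay above every library it was compared with. Npas2 to Clock was 0.166, 0.0896 and 0.118 in the WT and 0.135, 0.185 and 0.170 in the Nedd4L-cKO, with overlap. It was 0.0516, 0.0969 and 0.0972 in the culture-cohort MuSCs and 0.0206, 0.0113 and 0.00448 in myoblasts, without overlap.

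**Figure D5:**
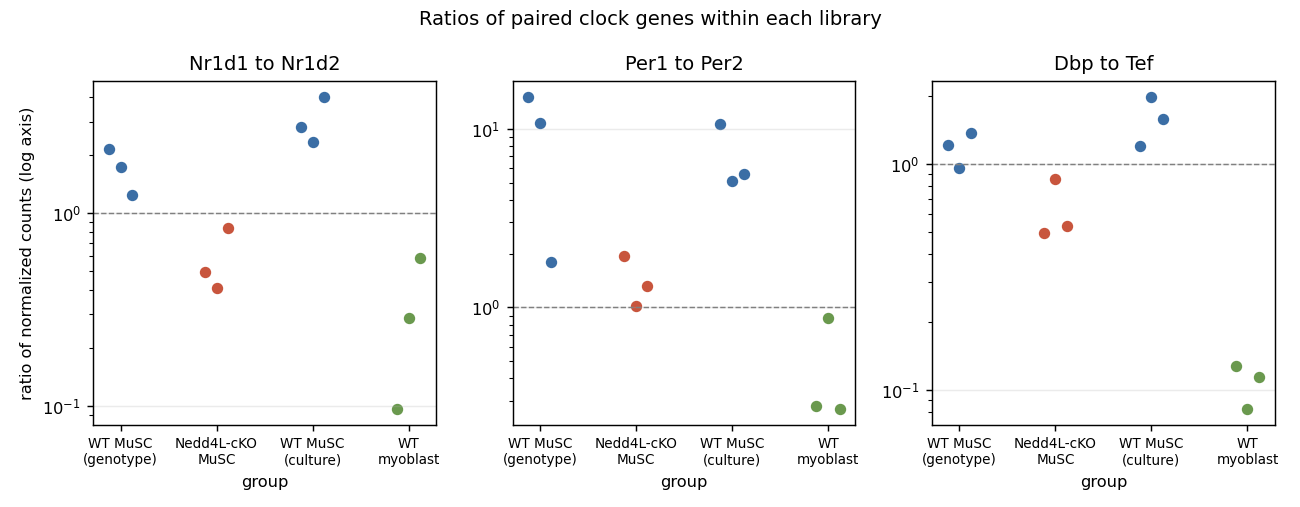
Ratio of normalized counts within each library (log axis) for Nr1d1 to Nr1d2, Per1 to Per2 and Dbp to Tef in the 4 groups, 3 libraries each, with a dashed line at 1. The Nr1d1 to Nr1d2 ratio is above 1 in the 6 WT MuSC libraries and below 1 in the Nedd4L-cKO and myoblast libraries.

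The genes most like Nr1d1 were sought among 9549 genes by the smaller of their Pearson correlations with it over the 6 libraries of each comparison, on log2(RPM + 1). The 5 highest were Cep85l (0.959), Slc38a1 (0.952), Prr5 (0.952), Ank3 (0.948) and Brwd1 (0.948). Of the other 9 clock genes, Per1 was the nearest at rank 36 (0.913), with 0.913 in the genotype and 0.991 in the culture comparison. Nr1d2 followed Nr1d1 between the genotypes (0.932) but not in culture (-0.096), and Dbp followed it in culture (0.989) more closely than between the genotypes (0.574). The libraries fall into 2 groups in each comparison and share their group difference, so the correlations include it.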

How the data were processed

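RNA was measured by SMART-Seq in 12 libraries of 1000 cells, in 4 groups of 3 taken from the sample labels. The authors quantified 75-base single-end reads with Kallisto 0.46.1, without a strand setting, on the GENCODE M28 basic annotation, collapsed the estimates to gene level with tximport, and tested them with DESeq2 (versions credited to the methods and the submitters' processing notes). Each comparison has its own table, and the values deposited there are a signal that the authors made by dividing estimated gene counts by the normalization factors of DESeq2. Whole reads could not be recovered from them, so depth is unknown and no counting interval is given. The tables also hold the authors' fold changes and p-values, which were not used. No column of per-sample values lacked a sample in the labels.

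In each table, 1 scale, the average total of the 6 libraries, turned the values into RPM. On log2(RPM + 1), limma 3.58.1 in R 4.3.3 was fitted with group as the only term, a mean-variance trend and robust moderation, over genes with at least 10 in at least 3 libraries, with Benjamini-Hochberg adjustment over all of them. An error after a log2 fold change is its standard error, and such differences understate genes near 0. The tables were normalized separately, so levels were not tested across them. The fit was tested on simulated data. The design assumed either counts or normalized values, and the second was found.

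The 10 clock genes and the gene lists were chosen with earlier results of these data known. Named were all 10, other clock genes that were called or belong to the core loop, genes of the other lists only if called (at most 6 a list, by smallest p), Nedd4l, and the 5 genes most like Nr1d1. A gene that this rule names is not reported here, and Thra, Arntl2, Csnk1d, Cd34, Ccnb1, Dpt and Ly6a were added to the alternatives after their values were seen. Exon lengths and overlaps came from the basic transcripts of GENCODE M39 on GRCm39, a later release than the authors', and promoter windows from RefSeq on GRCm38.p6. Python 3.11.15, pandas 2.3.3 and matplotlib 3.10.9 were used. Replicates are separate mice. The MuSC and myoblast libraries of the culture comparison are paired by mouse in the labels, with correlations of their deviations from the group means of -0.0314, -0.00502 and 0.0180. Alternatives were other scalings, pseudocounts, filters, call rules and moderation, a replicate block, and each library left out in turn.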

Additional observations from a re-analysis of the deposited data

How the results depend on the processing

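Between the genotypes, 100 genes were called, and the count was 195 with at least 10 in all 6 libraries, 41 for limma without the trend and robust options, 62 with the replicate number as a replicate block and 17 to 148 with 1 library left out, lowest without Nedd4L-cKO mouse 02. Of the 10 clock genes, 2 were called, and 1 (Nr1d1) without the trend and robust options and with the block, and 1 to 2 with 1 library left out. Same-numbered mice of the 2 genotypes are different animals, and the correlations of their deviations were 0.0192, -0.0232 and -0.181. In culture, libraries of the same mouse also gave values near 0 (-0.0314, -0.00502 and 0.0180). The correlations therefore cannot decide whether same-numbered mice were matched in some other way. In culture, 6566 genes were called, 3872 with the added fold change and RPM criteria, and 6078 with the mouse as a block. The block took 2 of the 10 clock genes, and none of the 7 other clock genes called lost its call. The calls of Nedd4l, Ier3 and Il6 between the genotypes held under 5, 3 and 10 of 14 alternatives, and the first 2 of these were lost with the block. No called clock gene changed direction under any alternative run. Scaling each library to its own total moved the median of all genes by 0.101 in culture, and moved Cry1 from 0.82 to 0.95. Depth is unknown, so precision rests on the spread of 3 libraries a group. The cause of these changes was not tested.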
